A study of Homo sapiens with 27 samples.

Results

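SUM44PE and SUM44F are cultures of the same estrogen receptor-positive (ER+) invasive lobular carcinoma (ILC) cell line, SUM44, and the comparison of their parental cultures took 6 of the 27 libraries of the series, 3 of SUM44PE and 3 of SUM44F. SUM44PE was the line as obtained and kept in its own medium. SUM44F was derived from it by growth for 3 months in a 1:1 mixture of DMEM and L-15 with serum (FBS), and was the parental line from which the long-term estrogen-deprived (LTED) variants SUM44 LTED-A and LTED-B were raised in hormone-deprived serum. Levels in those variants are given beside the parental cultures where they bear on the difference. The study, citing earlier work, describes SUM44F as having the stronger growth response to estradiol, which these libraries do not measure. Both parental cultures were hormone-deprived for 3 days in IMEM with 10% charcoal-stripped serum (CSS) before RNA was collected, so neither was in its growth medium and neither received added estradiol. No drug, transgene or deletion distinguished the cultures. The 3 libraries of a culture were wells of 1 plate seeding, p-values therefore speak for the spread between wells, and the growth medium, the time in culture and any selection of cells on the way from SUM44PE to SUM44F cannot be told apart. The study's text describes the medium of SUM44PE cells, in discussing another data set on them, as free of serum and supplemented with hormones, and refers to earlier work for the medium of the cultures measured here. The question was which genes and functions differed between the cultures.

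ILC cells usually lack E-cadherin, the adhesion protein encoded by CDH1, and most depend on ER, encoded by ESR1, a nuclear receptor that binds estradiol and switches on genes such as TFF1, GREB1 and PGR. SUM44 cells came from a pleural effusion and carry an amplified FGFR1, a fibroblast growth factor receptor. A change of medium alters the supply of hormones, lipids and growth factors, and months of growth can also let subclones with other chromosome copy numbers take over a line.

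Total estimated counts were 35614898 to 47109047 in the SUM44PE libraries and 44487388 to 76250461 in the SUM44F libraries. Small and miscellaneous structural RNAs took 14.4% to 16.9% of the counts in SUM44PE and 9.13% to 12.5% in SUM44F, and their part in the results was not tested. Luminal epithelial markers summed to 8985 to 9680 CPM (counts scaled to library size, with TMM factors) in SUM44PE and 7644 to 8979 CPM in SUM44F, with all 20 above 0 in every library. SUM44F replicate 1 stood apart from its replicates. All 10 fibroblast markers were highest in it, with a summed level of 378 CPM against 8.65 to 12.6 CPM in the other 5 libraries, and LUM, which encodes a matrix proteoglycan of fibroblasts, had 2636 counts there and 0 or 1 elsewhere. Of 14 immune cell markers 8 were highest in it (13.6 CPM in sum against 3.41 to 6.12). CD3D was at 0 in all 6 libraries, MS4A1 at 0 or 1, and NKG7 had 64 counts in SUM44F replicate 1 and 0 in the others. Endothelial markers summed to 51.6 CPM in SUM44F replicate 1, 28.2 and 33.8 CPM in its replicates and 13.4 to 13.7 CPM in SUM44PE, and basal and myoepithelial markers to 23.6 CPM in SUM44F replicate 1 and 16.2 to 19 CPM in the other 5 libraries. Named genes whose call changed without this library are given both ways below.

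Of 27458 genes tested, 782 (2.85%) were higher in SUM44PE and 748 (2.72%) were lower at an adjusted p below 0.001 and a fold change over 1.5, by edgeR's quasi-likelihood test with Benjamini-Hochberg adjustment. A gene past both limits is called below. Over 4-fold, 132 genes were higher and 123 lower, and over 8-fold 47 and 37. The libraries of the 2 cultures did not overlap for any of the 1530 called genes, which were 5.57% of the genes tested. Lack of overlap in a called gene therefore adds no support to its call. Of the called genes 1333 were protein-coding and 113 were lncRNAs. Without SUM44F replicate 1 the counts were 795 higher (2.91% of those tested) and 598 lower (2.19%), and 708 of the 782 and 584 of the 748 remained called. Over the 1000 genes that varied most among the SUM44 libraries, the distance between a SUM44PE and a SUM44F library (Euclidean, on log2(CPM + 1)) was 34.0 to 39.1. It was 9.83 to 16.4 between SUM44PE replicates and 14.9 to 25.1 between SUM44F replicates, so the cultures lay farther apart than their replicates did. Both LTED variants were farther from either culture, at 57.4 to 66.5 from SUM44PE and 63.5 to 72.9 from SUM44F.

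**Figure D1:**
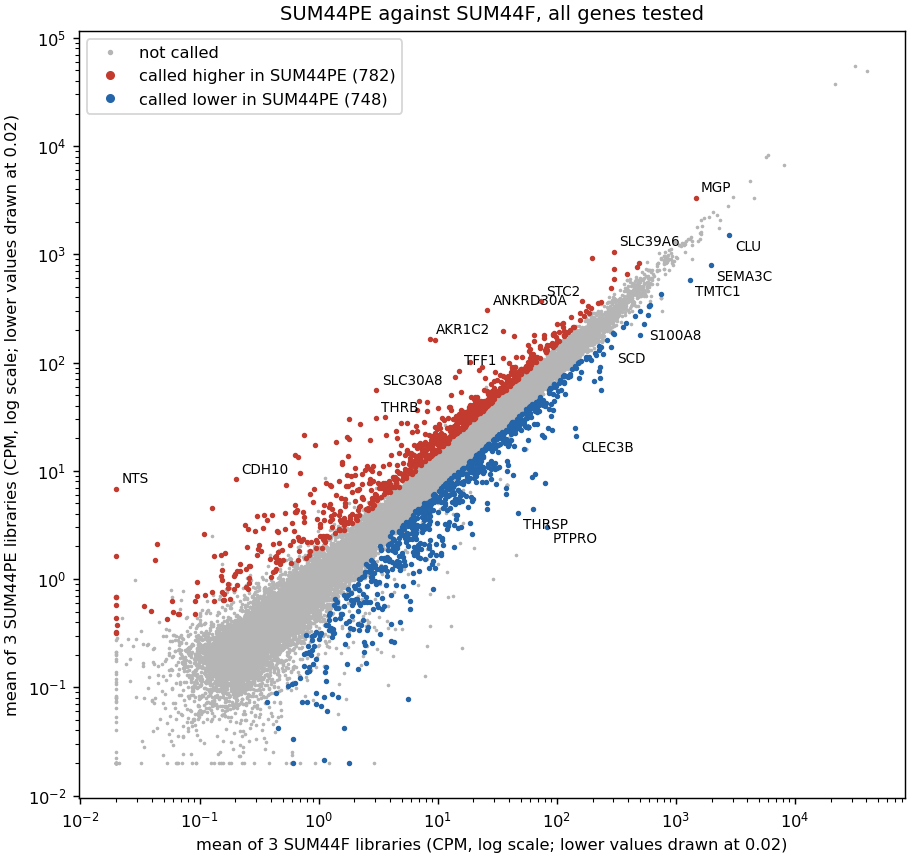
Mean CPM of the 3 SUM44PE libraries (y axis, log scale) against the mean of the 3 SUM44F libraries (x axis, log scale) for the 27458 genes tested, with the 782 genes called higher in red and the 748 called lower in blue. Called genes lie on both sides of the diagonal at all but the highest levels, and MGP and CLU are the most abundant of those labelled.

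The gene with the largest difference upwards was NTS (chr12:85874295-85882992, hg38), the precursor of the peptide hormone neurotensin. It had 6.35, 6.88 and 7.3 CPM in SUM44PE and no count in any SUM44F library, at least 130-fold higher against a floor of 3 counts per library. CDH10, a cadherin of neural tissue, had 7.7, 8.53 and 8.73 CPM in SUM44PE and 0.219, 0.311 and 0.078 in SUM44F. AKR1C2, an aldo-keto reductase that inactivates androgens, had 154, 174 and 165 CPM in SUM44PE and 9.02, 9.38 and 7.5 in SUM44F, a log2 fold change of 4.26 ± 0.11 (SE). Lack of overlap between the cultures was a condition for the genes ranked here. ANKRD30A, a differentiation antigen of breast epithelium, was abundant as well as different, with 314, 298 and 302 CPM in SUM44PE and 24.1, 24.7 and 29.2 in SUM44F (11.7-fold). SLC30A8, the zinc transporter of secretory granules, had 54.2, 57.4 and 55.5 CPM in SUM44PE and 2.88, 3.15 and 3.14 in SUM44F. DNAJC15, a co-chaperone of mitochondria, had 17.4, 17.7 and 17.4 CPM in SUM44PE and 1.16, 0.779 and 0.881 in SUM44F. For these 3 genes SUM44PE exceeded SUM44F more than 10-fold in the fit. The other genes with the largest differences upwards were TSPOAP1, NXPH1, CTTNBP2, P2RY10, C1orf21 and PCSK5, with log2 fold changes of 3.63 to 4.82. PCSK5, a proprotein convertase, was the least even among replicates (261, 184 and 34.8 CPM in SUM44PE and 8.95, 9.63 and 10 in SUM44F). CTTNBP2 had 1.32, 0.292 and 0.412 CPM in SUM44F, highest in replicate 1, and its log2 fold change was 4.41 with that library and 5.19 without.

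Among protein-coding genes that averaged 5 CPM or more, the limit for the genes ranked here, the largest difference downwards was in PTPRO (chr12:15322257-15602175), a receptor-type tyrosine phosphatase, with 3, 3.21 and 2.9 CPM in SUM44PE and 85.6, 84.6 and 80.9 in SUM44F (27.5-fold lower, adjusted p = 1.9e-10). NELL2, a secreted glycoprotein, had 4.21, 4.29 and 4.7 CPM in SUM44PE and 65.6, 65.5 and 60.2 in SUM44F. PDE4B, a phosphodiesterase that breaks down cyclic AMP, had 7.4, 7.35 and 8.3 CPM in SUM44PE and 80.3, 79.4 and 79.4 in SUM44F. Replicates lay close together for these genes, and the cultures differed by more than 10-fold. PROM1, which encodes the surface protein CD133, had 9.56, 9.42 and 9.2 CPM in SUM44PE and 66.1, 64.9 and 65.5 in SUM44F, and CLEC3B, which encodes the plasminogen-binding protein tetranectin, had 20.8, 20.9 and 21.5 CPM in SUM44PE and 159, 147 and 132 in SUM44F. CNTD1, a cyclin-domain protein of meiosis, had 9.16, 8.89 and 8.5 CPM in SUM44PE and 64.7, 61.6 and 59.7 in SUM44F. THRSP, S100A7A, KCTD12, ZNF648, CDSN and OLFML3 completed the 12 largest, with log2 fold changes of -2.89 to -3.53, and all 12 were called without SUM44F replicate 1 too. The plot of these genes by library also shows the LTED variants, which share their SUM44F parent. PTPRO was at 0.375 to 0.579 CPM in LTED-A and 0.125 to 0.367 in LTED-B, below both parental cultures. ANKRD30A was at 173 to 195 CPM in LTED-A and 284 to 319.7 in LTED-B, so SUM44F was the lowest of the 4 for it. AKR1C2 was high in SUM44PE alone, with 1.85 to 2.4 CPM in LTED-A and 10.3 to 12.4 in LTED-B.

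**Figure D2:**
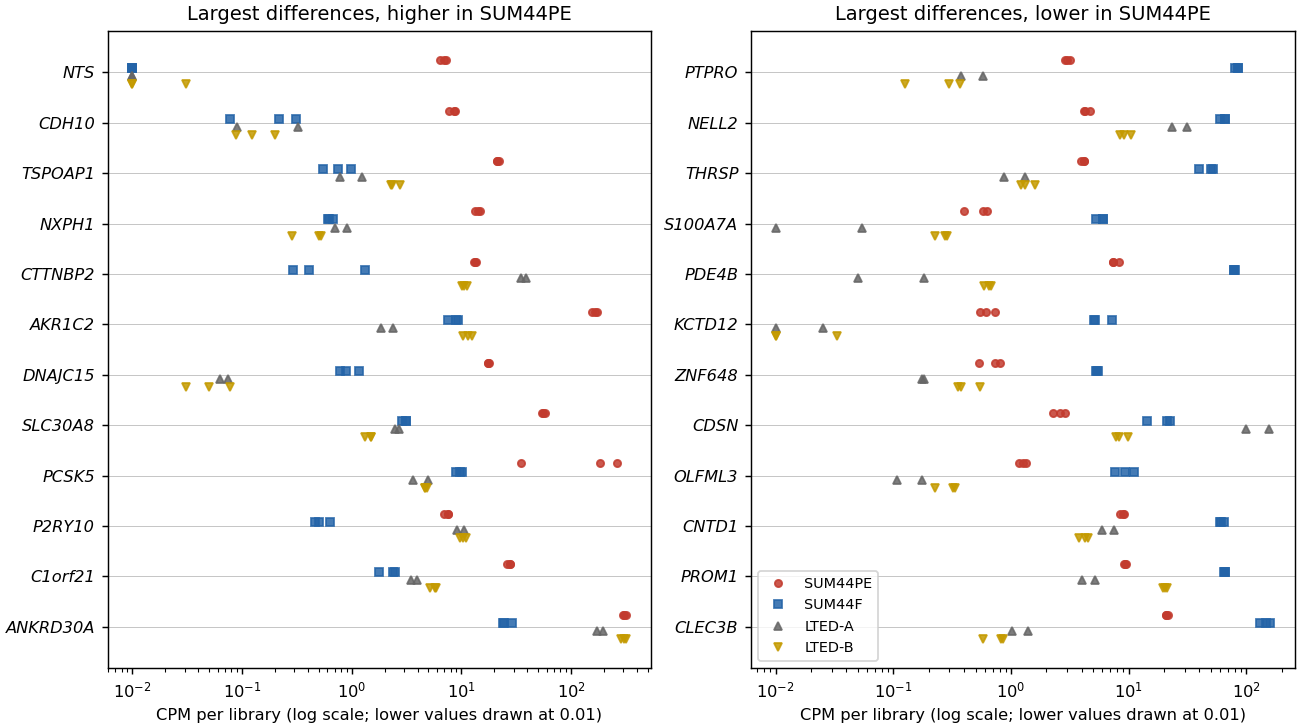
CPM in each library (x axis, log scale) of the 12 genes with the largest differences upwards (left) and downwards (right), for SUM44PE (red circles), SUM44F (blue squares), LTED-A (grey triangles) and LTED-B (yellow triangles). The 24 genes were chosen among those whose red and blue points do not overlap. The LTED points lie near SUM44PE for some genes, near SUM44F for others, and outside both for others such as PTPRO and CLEC3B.

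The most abundant called genes encode secreted, membrane and lysosomal proteins. MGP, an inhibitor of calcification, had 3234, 3479 and 3294 CPM in SUM44PE and 1578, 1500 and 1323 in SUM44F (log2 fold change 1.19 ± 0.13). CLU, the extracellular chaperone clusterin, had 1434, 1571 and 1519 CPM in SUM44PE and 3154, 3014 and 2303 in SUM44F (-0.90 ± 0.12). SEMA3C, a secreted semaphorin, had 775, 819.6 and 791 CPM in SUM44PE and 1958, 1931 and 2022 in SUM44F (-1.31 ± 0.10). MGP was therefore higher and CLU and SEMA3C lower in SUM44PE. The zinc importer gene SLC39A6 (LIV-1), known as estrogen-regulated, had 1010, 1111 and 1062 CPM in SUM44PE and 309, 304 and 292 in SUM44F (1.81 ± 0.09). TMTC1, a mannosyltransferase of the endoplasmic reticulum, was lower (-1.16 ± 0.07), and CTSD, the lysosomal protease cathepsin D, was higher (0.78 ± 0.09).

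Functions were read from 48 gene lists. Of 947 listed genes 830 were tested, and 87 (10.5%) were called higher and 60 (7.23%) lower. The shares were 2.85% and 2.72% of all genes tested, and 4.77% and 3.97% of those averaging 5 CPM or more. The listed genes had no such level limit. The lists were chosen with earlier results of these data known, so the larger shares are no finding about the lists. Members called higher only stood in 13 lists, members called lower only in 12, both in 17, and none in 6. Each list below is given by its called members and the median log2 fold change of those tested, beside a median of -0.02 for all genes.

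**Figure D3:**
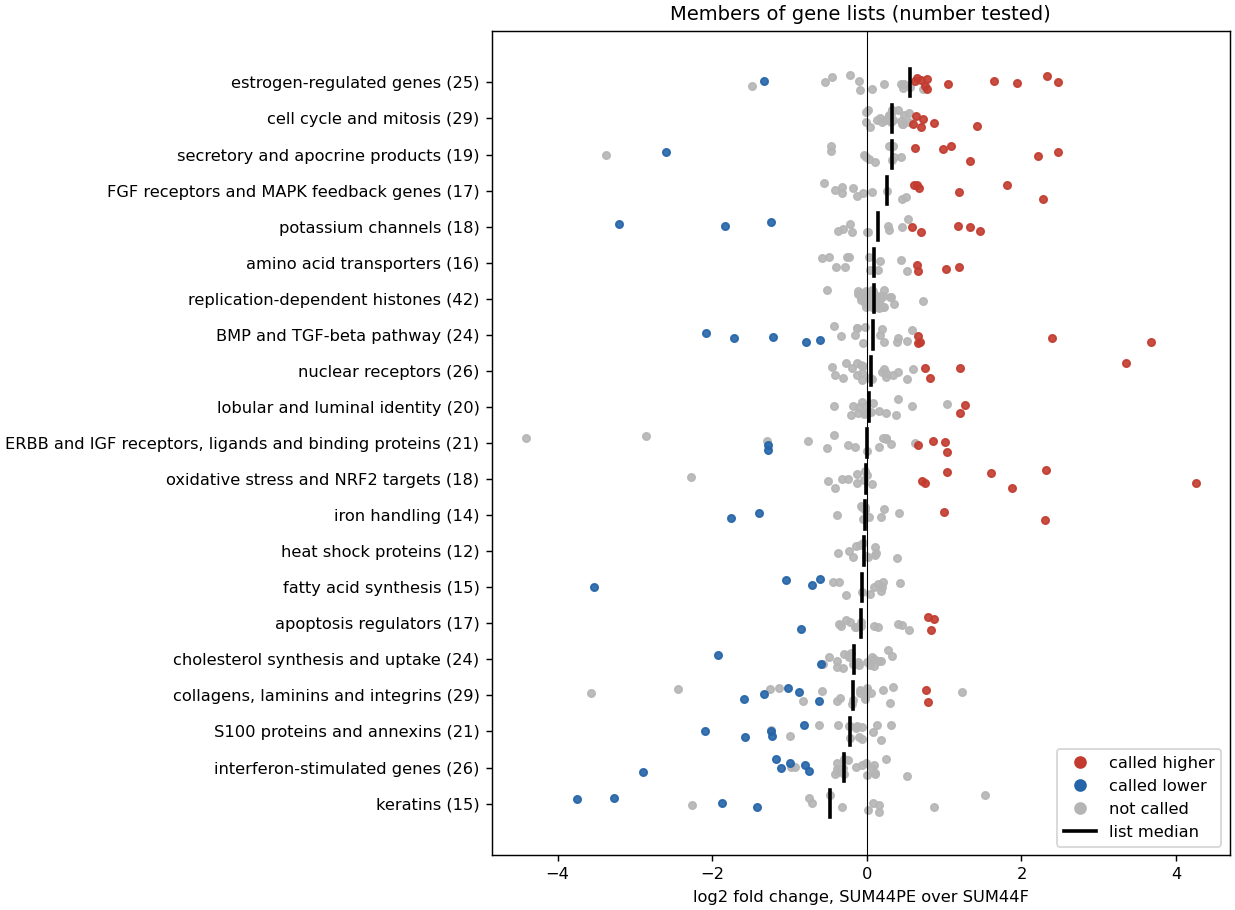
Log2 fold change, SUM44PE over SUM44F (x axis), of every tested member of 21 gene lists (rows, number tested in brackets, sorted by the list median drawn as a black bar), with members called higher in red, lower in blue and not called in grey. Estrogen-regulated genes have the highest median (0.55) and keratins the lowest (-0.48), and histones and heat shock proteins hold no called member.

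Many estrogen-regulated genes were higher in SUM44PE. Both cultures had been hormone-deprived, so these levels do not measure a response to estradiol. Of 25 tested, 11 were called higher, 1 lower and 13 neither, with a median of 0.55, and the counts were the same without SUM44F replicate 1. TFF1, a secreted trefoil peptide, had 75.9, 89.5 and 86.3 CPM in SUM44PE and 16.3, 16.3 and 12.7 in SUM44F (log2 fold change 2.48 ± 0.12). STC2, a secreted glycoprotein hormone, had 346, 384 and 381 CPM in SUM44PE and 77.7, 77.2 and 66.4 in SUM44F (2.33 ± 0.09). AREG, a ligand of EGFR, had 3.94, 4.64 and 4.03 CPM in SUM44PE and 1.01, 1.11 and 1.16 in SUM44F (1.94 ± 0.18). In all 3 the lowest SUM44PE library was more than 3 times the highest SUM44F library. PKIB, TPD52L1, GREB1, CTSD, CA12, CCND1, ADCY9 and NRIP1 were also called, at 0.62 to 1.65. CCND1, the G1 cyclin, was the most abundant of these besides CTSD, with 724, 786 and 783 CPM in SUM44PE and 494, 501 and 418 in SUM44F. SUSD3 was the one called lower (1.13, 1.27 and 1.3 CPM in SUM44PE and 3.18, 3.6 and 2.57 in SUM44F). PGR, the progesterone receptor and a classical ER target, was not called. It had 1.4, 1.6 and 1.38 CPM in SUM44PE and 9.66, 1.32 and 1.53 in SUM44F, so its fitted log2 fold change of -1.49 came with a raised level in SUM44F replicate 1 and was 0.03 without that library.

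ESR1 itself had 849.8, 862 and 855 CPM in SUM44PE and 580.4, 598 and 538 in SUM44F. The libraries did not overlap, and the log2 fold change of 0.58 ± 0.08 (adjusted p = 0.00016) was just under the 1.5-fold limit, so ESR1 was not called here but was called by DESeq2 and under 9 other alternatives, one of them without a fold limit. Among 20 lobular and luminal identity genes the median was 0.03, and 2 were called higher. Of these, XBP1, a transcription factor of the secretory pathway, had 702, 774 and 742 CPM in SUM44PE and 314, 303 and 301 in SUM44F (1.27 ± 0.09). GATA3 and FOXA1, which open chromatin for ER, had log2 fold changes of -0.06 ± 0.13 and -0.18 ± 0.08 and were not called, and the sign of GATA3 turned with 1 library left out. CDH1 was at 21, 20.9 and 21.4 CPM in SUM44PE and 24.9, 22.3 and 21.2 in SUM44F, and FGFR1 at 523, 537 and 537 CPM in SUM44PE and 456, 471 and 405 in SUM44F (0.26 ± 0.08). Neither was called, and the cultures thus differed more in estrogen-regulated genes than in these lineage genes by the list medians, a difference that was not tested.

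Several receptors for growth factors were higher in SUM44PE, while ligands of the EGF family went both ways. Of 17 FGF receptor and MAPK feedback genes 6 were called higher and none lower (median 0.26). FGFR2 had 8.83, 8.99 and 9.2 CPM in SUM44PE and 2.63, 1.67 and 1.36 in SUM44F and FGFR3 17.3, 17 and 17.3 CPM in SUM44PE and 5.42, 5.24 and 4.15 in SUM44F. DUSP4, a phosphatase that switches off MAPK, had 173, 183 and 179.9 CPM in SUM44PE and 80.2, 84.9 and 69.9 in SUM44F. SPRY4, SPRY1 and FGF13 were called at 0.61 to 0.68, and SPRY4 was not called without SUM44F replicate 1 (0.69). DUSP6, SPRY2 and ETV4, which are also induced by MAPK activity, had log2 fold changes of -0.06, -0.55 and -0.12 and were not called. In the ERBB and IGF list, ERBB4 (232, 228 and 231 CPM in SUM44PE and 110.5, 115 and 113 in SUM44F) and IGF1R (249.5, 270.0 and 272 CPM in SUM44PE and 134, 127 and 132 in SUM44F) were each about 2 times higher in SUM44PE. IRS2 and INSR, the adaptor and the insulin receptor, were called higher at 0.86 and 0.67. The EGFR ligands TGFA (8.86, 10.6 and 10.7 CPM in SUM44PE and 24.8, 24.4 and 23.7 in SUM44F) and HBEGF (-1.28, not called without SUM44F replicate 1, -1.22) were called lower, while AREG and EGF itself, which is not in the list (14.1, 14.5 and 15 CPM in SUM44PE and 6.43, 6.21 and 5.43 in SUM44F) were called higher. IGFBP6 and IGFBP3 were not called. EGFR had 0.405, 0.549 and 0.375 CPM in SUM44PE and 2.37, 0.0195 and 0.0223 in SUM44F, so SUM44F replicate 1 alone was above SUM44PE, and EGFR was not called with that library and was called higher in SUM44PE without it. IGF2 was not called either (-2.86), and was called lower without SUM44F replicate 1 (-1.72).

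Called genes of the fatty acid and cholesterol synthesis lists were all lower in SUM44PE. Of 15 fatty acid synthesis genes 4 were called lower and none higher (median -0.07), and of 24 genes of cholesterol synthesis and uptake 2 were lower and none higher (median -0.17). THRSP, a regulator of lipogenesis, had 3.94, 4.2 and 4.15 CPM in SUM44PE and 51.9, 50.6 and 39.6 in SUM44F (-3.53 ± 0.15). SCD, the desaturase that makes oleate, had 132, 142 and 144 CPM in SUM44PE and 301, 313 and 248 in SUM44F (-1.04 ± 0.09), and FASN, the fatty acid synthase, 220.2, 241 and 234 CPM in SUM44PE and 392, 415 and 335 in SUM44F (-0.72 ± 0.11). SREBF1, which encodes the transcription factor SREBP1, had 89.9, 94.3 and 94.1 CPM in SUM44PE and 153, 153 and 119.5 in SUM44F (-0.61 ± 0.09). As for every gene called lower, all 4 were lower in every SUM44PE library than in any SUM44F library. STARD4, a sterol carrier, had 1.54, 1.75 and 1.68 CPM in SUM44PE and 6.78, 5.57 and 6.63 in SUM44F, and INSIG1, which holds SREBP in the endoplasmic reticulum, 99.2, 108 and 99.7 CPM in SUM44PE and 158, 152 and 152 in SUM44F. Without SUM44F replicate 1, THRSP, SCD and STARD4 kept their calls, and FASN (-0.69), SREBF1 (-0.55) and INSIG1 (-0.58) did not. The pathway was not lower as a whole, since ACACA (-0.44), ACLY (-0.36) and SQLE (0.07) were not called. ACACB was higher in SUM44PE at 0.43 (adjusted p = 0.00069), under the 1.5-fold limit and so not called. Of the 15 fatty acid synthesis genes 7 had a positive log2 fold change. In both LTED variants SCD, FASN and SREBF1 were above SUM44F, at 634 to 686 CPM of SCD in LTED-A and 643 to 673 in LTED-B, and THRSP was below SUM44PE. OXCT1, which uses ketone bodies, went the other way, with 48.6, 52.9 and 50.4 CPM in SUM44PE and 12.6, 13 and 13 in SUM44F.

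These 6 lipid genes were taken because they were called lower, so their common direction was set by the choice. The 250 bases before their start sites were searched on both strands. The search was for the CCAAT box that NF-Y binds beside SREBP (CCAAT, or ATTGG on the other strand). It was also for 1 form of the sterol regulatory element (TCACNCCAC). RefSeq windows (GRCh38.p14) were at hand for 5 of the 6. The CCAAT box stood in 4 (THRSP, SCD, STARD4 and INSIG1) and not in SREBF1, against 11229 of 35093 promoters in all (32%). The sterol regulatory element stood in none of the 5 and in 310 of the 35093 (0.883%). Lipid genes that were not called were not searched, so these shares cannot tell the called genes from the others. Below, 70 bases of each of the 4 are printed 5′ to 3′ on the gene's strand from 15 bases before its first CCAAT box, with CCAAT or ATTGG in capitals.
THRSP (chr11:78063745-78063814, plus strand): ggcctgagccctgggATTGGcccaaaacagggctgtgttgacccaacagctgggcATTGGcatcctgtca
SCD (chr10:100346989-100347058, plus strand): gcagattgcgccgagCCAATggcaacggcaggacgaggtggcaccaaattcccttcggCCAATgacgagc
STARD4 (chr5:111512642-111512711, minus strand): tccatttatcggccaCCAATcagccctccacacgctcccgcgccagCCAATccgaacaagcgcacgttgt
INSIG1 (chr7:155297693-155297762, plus strand): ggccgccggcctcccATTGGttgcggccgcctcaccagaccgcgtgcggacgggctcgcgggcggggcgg
THRSP, SCD and STARD4 each hold a pair of boxes in the printed stretch and INSIG1 a single one.

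**Figure D4:**
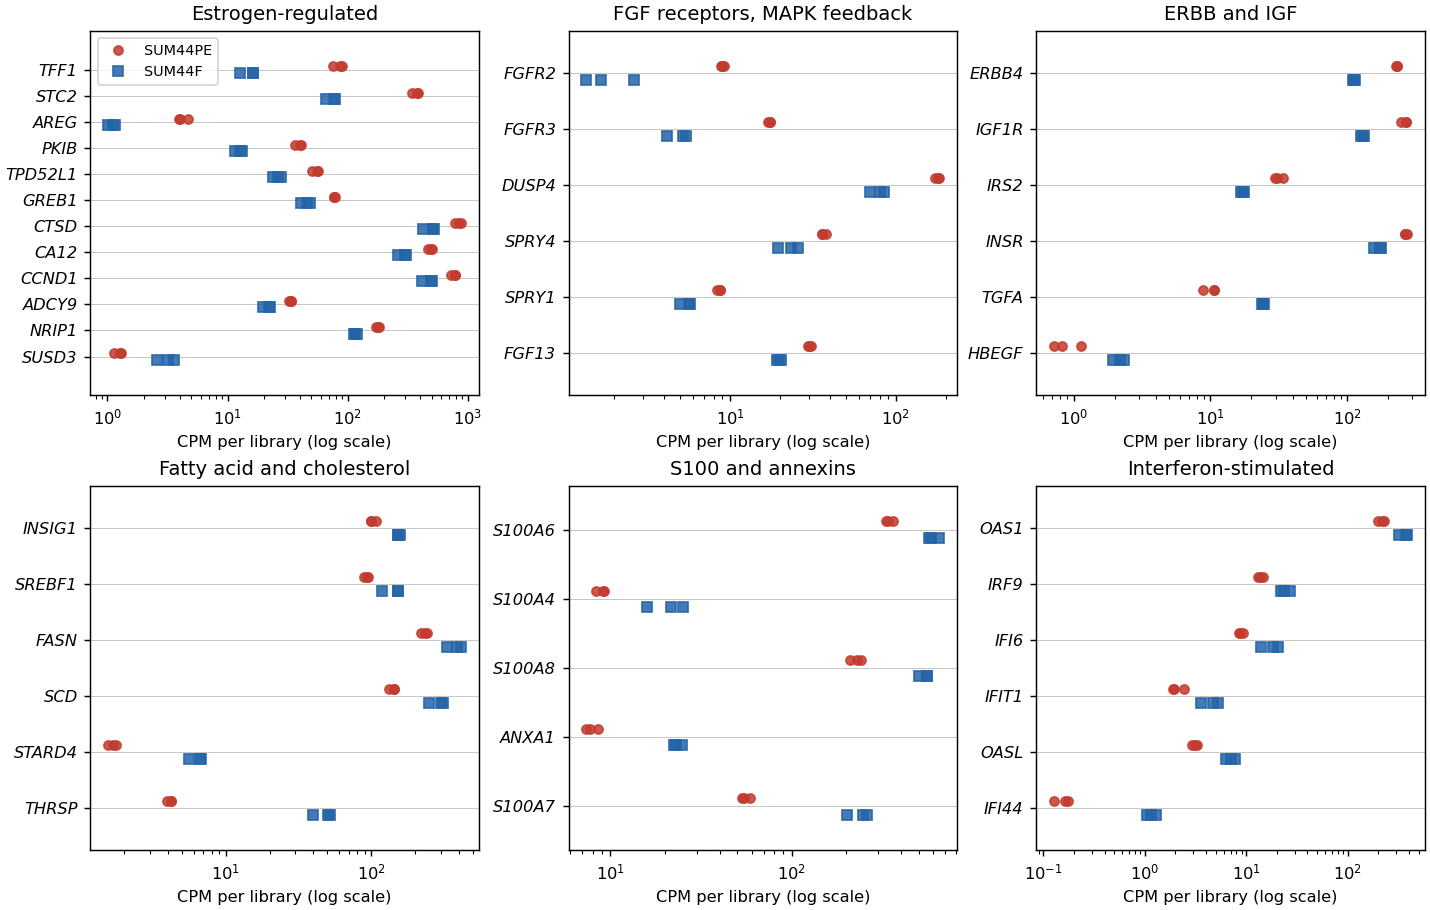
CPM in each of the 6 libraries (x axis, log scale) of all called members of 6 groups of lists, with SUM44PE as red circles and SUM44F as blue squares. SUM44PE lies to the right for 11 of 12 estrogen-regulated genes, for all 6 FGF receptor and MAPK feedback genes and for 4 of 6 ERBB and IGF genes, and to the left for all 6 lipid, 5 S100 and annexin and 6 interferon-stimulated genes.

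Among 26 nuclear receptors 4 were called higher and none lower (median 0.06). THRB, the thyroid hormone receptor beta, had 29.1, 31.7 and 32.2 CPM in SUM44PE and 3.12, 2.92 and 3.04 in SUM44F (10.2-fold, adjusted p = 1.2e-11), while its relative THRA was not called (-0.08). NR4A2 and NR3C2 were called at 1.20 and 0.75, NR3C2 not without SUM44F replicate 1 (0.76). In both LTED variants THRB was higher still, at 65.5 to 68.4 and 88.9 to 90.6 CPM. SUM44F was the lowest of the 4 SUM44 cultures for this receptor.

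Aldo-keto reductases accounted for 4 of 7 called members of the oxidative stress and NRF2 list, none of which was lower. AKR1C1 had 5.29, 6.12 and 5.55 CPM in SUM44PE and 1.89, 1.62 and 1.16 in SUM44F and AKR1C3, which makes androgens and estrogens from weaker steroids, 25.9, 28.6 and 28 CPM in SUM44PE and 6.12, 5.59 and 4.88 in SUM44F. AKR1C1, AKR1C2 and AKR1C3 are neighbours of related sequence on chromosome 10, so estimated counts may be split between them with error. AKR1B10 (1.04), GPX2 (1.60), OSGIN1 (0.76) and HMOX1 (0.72) were the other 4 called higher, AKR1B10 not without SUM44F replicate 1 (1.09). The most used reporters of NRF2 were not higher, with NQO1 at -0.50, GCLC at -0.41, GCLM at -0.24, TXNRD1 at -0.33 and SRXN1 at -0.03, none called, and the list's median was -0.02. SULT1E1, the sulfotransferase that inactivates estradiol, was lower (0.432, 0.38 and 0.35 CPM in SUM44PE and 4.39, 3.66 and 4.24 in SUM44F). The related P450 genes CYP4Z1 and CYP4X1, neighbours on chromosome 1, were lower at -1.91 and -1.06, and the other 20 tested genes of drug and steroid metabolism were not called.

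Mammaglobin and several other breast secretory products were higher in SUM44PE. Of 19 tested, 6 were called higher and 1 lower (median 0.32). SCGB2A2, which encodes mammaglobin, had 885, 957 and 940.5 CPM in SUM44PE and 206, 209 and 185 in SUM44F, and its partner SCGB1D2 44.2, 52.1 and 47.4 CPM in SUM44PE and 19.5, 20.1 and 17.4 in SUM44F. CEACAM5, the carcinoembryonic antigen, had 4.08, 3.88 and 4.6 CPM in SUM44PE and 0.571, 0.701 and 0.947 in SUM44F. SCGB2A1, TFF3 and AZGP1 were called higher at 0.63 to 1.09, and the mucin MUC20 was lower (5.97, 5.95 and 6.55 CPM in SUM44PE and 40.4, 39.2 and 32.8 in SUM44F). In the LTED variants SCGB2A2 was at 2.03 to 3 CPM in LTED-A and 1.59 to 1.73 in LTED-B, so the parental cultures differed within a range far above the variants.

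Some S100, annexin and interferon-stimulated genes were lower in SUM44PE, and none was called higher. Of 21 S100 proteins and annexins 5 were called lower and none higher (median -0.22), in the presence and the absence of SUM44F replicate 1. S100A8, an alarmin, had 209, 239.9 and 229.9 CPM in SUM44PE and 554, 555 and 501 in SUM44F, S100A7 (psoriasin) 52.8, 58.7 and 54.8 CPM in SUM44PE and 260.4, 248 and 203 in SUM44F and ANXA1, a phospholipid-binding protein, 7.73, 8.51 and 7.38 CPM in SUM44PE and 25, 22.9 and 22.5 in SUM44F. S100A4 and S100A6 were lower at -1.23 and -0.82, but S100A9, the partner of S100A8, was not called (-0.06). Of 26 interferon-stimulated genes 6 were called lower and none higher (median -0.30). The antiviral genes IFI44, OASL, IFIT1, IFI6 and OAS1 and the transcription factor gene IRF9 were lower, at -0.75 to -2.90, with OAS1 the most abundant (199, 227 and 217 CPM in SUM44PE and 374, 384 and 322 in SUM44F) and IFIT1 not called without SUM44F replicate 1 (-0.99). ISG15 (0.11) and MX1 (-0.38) were not called. Of 10 MHC class II genes CD74, the invariant chain, was lower (20, 20.2 and 19.5 CPM in SUM44PE and 44.4, 37.9 and 29.8 in SUM44F, -0.77 without SUM44F replicate 1) and the other 9 were not called. LCN2, a siderophore-binding protein, and LTF, lactoferrin, were lower at -1.75 and -1.40, while the ferrous iron exporter gene SLC40A1 and the metalloreductase gene STEAP1 were higher at 0.99 and 2.30.

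Genes of matrix and attachment were divided. Of 29 collagens, laminins and integrins, 5 were called lower and 2 higher (median -0.18). The laminin chains LAMB1 (115, 125 and 120.0 CPM in SUM44PE and 255, 250.3 and 224 in SUM44F) and LAMB3 (-1.33) were lower, and LAMA3 was higher (0.80). COL5A1 had 10.8, 10.7 and 11 CPM in SUM44PE and 48.4, 26.4 and 23.2 in SUM44F, so replicate 1 of SUM44F was about 2 times its replicates, and the log2 fold change was -1.59 with that library and -1.20 without. PLS3, an actin-bundling protein, was lower (1.46, 1.5 and 1.18 CPM in SUM44PE and 10.5, 7.94 and 8.34 in SUM44F). Of 15 keratins 4 were called lower (KRT20, KRT16, KRT4 and KRT86), of which only KRT86 exceeded 2 CPM in SUM44F (10.2, 10.6 and 10.3 CPM in SUM44PE and 28.4, 30.1 and 25.2 in SUM44F). KRT16 and KRT4 were not called without SUM44F replicate 1. KRT8, KRT18 and KRT19, the main keratins of luminal cells, were at 0.01, 0.08 and 0.16 and were not called.

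In the BMP and TGF-beta list 5 genes were higher and 5 lower, of 24 (median 0.07). The ligands TGFB2 (1.54, 1.41 and 1.35 CPM in SUM44PE and 4.83, 4.77 and 4.63 in SUM44F), TGFB1 and BMP4 were lower, as was the pseudoreceptor gene BAMBI (-0.78), and BMP4 was not called without SUM44F replicate 1 (-0.52). The stress cytokine GDF15 (3, 3.06 and 3.38 CPM in SUM44PE and 0.263, 0.195 and 0.267 in SUM44F) and the receptor gene BMPR1B (2.86, 2.81 and 3.03 CPM in SUM44PE and 0.373, 0.467 and 0.713 in SUM44F) were higher, as were INHBB, TGFBR1 and ID2 at 0.66 to 0.68. Of 13 Notch pathway genes the targets HEY2 (7.27, 7.68 and 6.9 CPM in SUM44PE and 1.49, 1.44 and 0.914 in SUM44F) and HES1 (1.14) and the ligand gene JAG2 (0.69) were higher and none was lower. Of 18 potassium channel genes 5 were higher and 3 lower. KCND3, KCNK15 and KCNJ3, which encode pore-forming subunits, were higher at 1.18 to 1.47, and the channel genes KCNH2 (-1.84) and KCNN4 (-1.24) and KCTD12, whose protein carries a channel tetramerization domain, (-3.20) were lower.

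Cell cycle genes had a shift that was small and in one direction. Of 29 tested, 27 had a positive log2 fold change, 6 were called higher (MCM5, CCNA2, CCNB2, TYMS, PLK1 and BUB1) and none lower, and the median was 0.33 (0.38 without SUM44F replicate 1). MCM5, part of the replicative helicase, stood out at 1.43 ± 0.08 (79.9, 83.3 and 80 CPM in SUM44PE and 33, 31 and 26.3 in SUM44F), whereas MCM2, MCM3, MCM4, MCM6 and MCM7, its partners in the same hexamer, were at 0.04 to 0.47 and not called. MCM5 lies in the raised stretch of chromosome 22 described below. MKI67, the proliferation antigen, was at 0.23 ± 0.15 and not called, and no replication-dependent histone gene of 42 was called (median 0.09). MYC, a transcription factor, was higher (6.16, 7.22 and 6.73 CPM in SUM44PE and 3.29, 2.69 and 2.22 in SUM44F). Of 16 amino acid transporters 4 were higher and none lower. The leucine transporter pair SLC7A5 and SLC3A2 was at 0.65 and 0.66, SLC7A8 at 1.19 and SLC43A1 at 1.03. In the stress response list SLC7A11, the cystine importer gene, had 17.2, 19 and 17.4 CPM in SUM44PE and 8.52, 7.65 and 9.11 in SUM44F, PHGDH of serine synthesis was higher (0.67), and HERPUD1 of the unfolded protein response was lower (-0.70), while ATF4, DDIT3 and ASNS were not called.

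The remaining lists held few called genes. Higher members were HOXC13 (0.68) of 19 HOX genes, PEG10 (0.98) of 9 imprinted genes, ABCC11 and ABCA5 of 19 ABC transporters, FZD8 (1.68) of 22 WNT pathway genes, ENO2 (0.77) of 21 glycolysis and hypoxia genes, SMPDL3A (1.46) of 10 cholesterol efflux genes and BMF, BID and PMAIP1 of 17 apoptosis regulators, PMAIP1 not without SUM44F replicate 1 (0.79). Lower members were WNT6 (-2.36), SLC2A3 (-1.09), MYLIP (-0.72), HRK (-0.85), CXCL8 (-1.83), CDH3 (-0.65), HDAC9 (-1.10) and CDKN2B (-0.87) in the same or other lists. TAT, a glucocorticoid-induced aminotransferase, was higher (11.1, 10.9 and 12.6 CPM in SUM44PE and 0.658, 0.817 and 3.24 in SUM44F) and CEBPD lower (-0.97) of 18 glucocorticoid-responsive genes. Of the marker lists of other cell types, PECAM1 (endothelial) was lower (7.37, 8.09 and 8.3 CPM in SUM44PE and 27.7, 26.7 and 21.7 in SUM44F), TP63 (basal) was lower at -1.36 but not called without SUM44F replicate 1 (-1.26), and no immune or fibroblast marker was called. KLF4, HLA-E and TAGLN2 were lower and PLIN1, LCP1 and CBX7 higher in lists not named above, at -0.76 to 1.04, and without SUM44F replicate 1 HLA-E (-0.50) and PLIN1 (0.85) were not called. None of 12 heat shock proteins and none of 13 mitochondrially encoded proteins was called. Of the 26 genes of the 8p11 and 11q13 amplicons, CCND1 and GAB2 (156, 159 and 158 CPM in SUM44PE and 68.6, 68.2 and 58.6 in SUM44F) were called, and the median was 0.02.

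Neighbouring genes were shifted together in 2 stretches, which held 109 of the 1530 called genes. Medians of the log2 fold change were taken over 565 windows of 40 neighbours with at least 5 CPM, and 9 windows were beyond 0.5 in size, 7 on chromosome 22 and 2 at the end of chromosome 19. Outside those chromosomes window medians ran from -0.31 to 0.45. On chromosome 22 (chr22:15282557-37633564, 160 genes) 149 genes had a positive log2 fold change, 76 were called higher and 1 lower, with a median of 0.59 (0.64 without SUM44F replicate 1). The remaining 149 genes of the chromosome had a median of 0.30, with 26 called higher and 1 lower. XBP1, MCM5 and BID are among the 160, and the 3 with the largest change were SEC14L2 (8.7, 9.16 and 9.38 CPM in SUM44PE and 2.02, 2.47 and 1.55 in SUM44F), PRODH (26, 26.2 and 25.9 CPM in SUM44PE and 7.22, 6.6 and 5.92 in SUM44F) and LRP5L (1.47). Set against the mean of SUM44F, the median over the 160 genes was 0.56, 0.61 and 0.60 in the SUM44PE libraries and 0.08, 0.05 and -0.14 in the SUM44F libraries. With the same SUM44F mean as the base it was 0.59 and 0.64 in LTED-A and -0.20 to -0.16 in LTED-B. LTED-A was thus at the level of SUM44PE over these genes, and LTED-B was below SUM44F.

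At the end of the long arm of chromosome 19 (chr19:55485188-58431736) all 60 genes had a negative log2 fold change and 32 were called lower, with a median of -0.59. The stretch holds 47 genes named as zinc finger or related factors, of which 27 were called, led by ZNF211 (10, 10.7 and 10.4 CPM in SUM44PE and 21.7, 22.9 and 20.4 in SUM44F), ZNF606 (28.5, 28 and 29.2 CPM in SUM44PE and 52.6, 54.1 and 53.8 in SUM44F) and ZNF329 (-0.88). Zinc finger genes encode DNA-binding repressors and lie here in a cluster. Against the SUM44F mean the median over the 60 genes was -0.62, -0.56 and -0.56 in SUM44PE, 0.11 and 0.09 in LTED-A and 0.21 to 0.24 in LTED-B. The lowering was thus seen in SUM44PE and in neither LTED variant. Smaller shifts ran along other arms. Of the genes on chromosomes 14, 15 and 16 with at least 5 CPM, 81.3%, 72.3% and 68.4% had a positive log2 fold change, against 46.7% of all such genes, and on chromosome 17, which shifted the other way, 25.9% did (6 called higher and 25 lower). On the long arm of chromosome 6 the windows that hold ESR1 had medians of 0.36 and 0.41, beside 0.58 for ESR1. DNA copy number was not measured, and its part in these shifts was not tested. Without the genes of both stretches 706 genes were called higher and 715 lower.

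**Figure D5:**
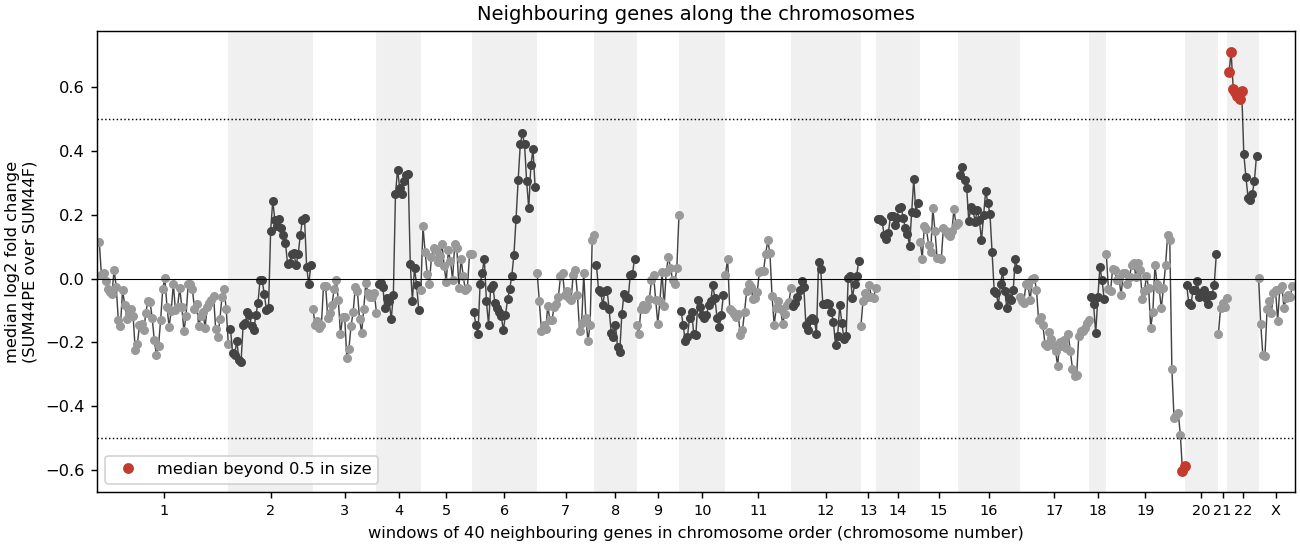
Median log2 fold change, SUM44PE over SUM44F (y axis), of 565 overlapping windows of 40 neighbouring genes in chromosome order (x axis, 1 point per window, chromosomes shaded in turn), with the 9 windows beyond 0.5 in red. Chromosome 22 is raised along its whole length, from 0.25 to 0.71, the end of chromosome 19 falls to -0.60, and steps of up to 0.45 run along parts of chromosomes 4, 6, 14, 15 and 16.

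Of 6457 lncRNAs tested, 52 were called higher (0.805%) and 61 lower (0.945%), against 2.85% and 2.72% of all genes. These shares were not matched for level, and of all genes averaging 5 CPM or more 4.77% and 3.97% were called. Whether lncRNAs differed less at equal levels was not tested. DSCAM-AS1, an ER-regulated lncRNA of luminal breast cancer, had 18.6, 19.8 and 20.2 CPM in SUM44PE and 1.84, 2 and 1.52 in SUM44F (11-fold). LINC01833 was higher at 2.07, as was LINC00654 (8.02, 7.6 and 7.33 CPM in SUM44PE and 2.59, 3.29 and 2.27 in SUM44F). LINC01187 (1.97, 2.03 and 1.78 CPM in SUM44PE and 8.43, 8.45 and 8.34 in SUM44F), LNCAROD (-1.94) and LINC03004 (-1.72) were lower. In the LTED variants 5 of the 6 were at or below 0.886 CPM, and LINC01833 was at 1.33 to 1.44 CPM in LTED-B.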

How the data were processed

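RNA-Seq of 27 libraries was deposited, of which the 6 of SUM44PE and SUM44F were compared. The authors made libraries with a stranded total RNA kit and deposited estimated counts per Ensembl gene from Salmon 0.6.0 (hg38, per the labels). The strand setting was not given in the sources used here. Counts were rounded, symbols came from GENCODE v44, and genes were filtered with filterByExpr, scaled by TMM and fitted with edgeR 4.0.16 (quasi-likelihood) over 11 samples of SUM44PE, SUM44F, LTED-A and LTED-B, where LTED-A replicates 2 and 3 differed by less than sampling noise and counted as 1 sample. Benjamini-Hochberg adjusted p-values covered all 27458 genes. On counts drawn with known changes, 64 of 100 genes changed 2-fold and 97 of 100 changed 4-fold were called, with 1 false call. The changed genes were taken from those above 1 CPM in SUM44F, and all groups otherwise shared the SUM44F means. Changes in genes below that level and an outlying library were thus not covered. Levels are given as counts scaled to library size with TMM factors (CPM).

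The comparison and the gene lists were chosen with earlier results of these data known. Genes are named by a fixed rule: the 12 largest differences each way among called protein-coding genes with at least 5 CPM and no overlap, the 6 most abundant called genes, up to 4 called members per list, 3 per stretch, 3 lncRNAs each way, and ESR1, CDH1, FGFR1, GATA3 and FOXA1. Other list members are given as context, and a few named or listed genes are not reported here. DESeq2 1.42.0, other scaling, filters, thresholds, sample sets and leave-one-out fits were the alternatives. Other libraries were not analysed here beyond levels and distances.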

Additional observations from a re-analysis of the deposited data

How the results depend on the processing

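Of 782 genes higher and 748 lower in SUM44PE, DESeq2 gave 893 and 823, and 766 and 720 of the edgeR calls were among its own. Size factors by RLE gave 799 and 712, no filter on low counts 1003 and 939, and all 9 groups in the fit 1030 and 951. The 6 parental libraries alone gave 746 and 590, and thinning those 6 to the smallest library gave 730 and 586. A fold change minimum of 2 left 360 and 410, and an adjusted p below 0.05 gave 1343 and 1527. Leaving out 1 library at a time gave 583 to 795 higher and 480 to 675 lower, the lowest lower count without SUM44PE replicate 1 (480). Deviations of same-numbered libraries correlated at -0.13, 0.32 and 0.29, and those of differently numbered libraries at -0.46 to 0.27. Whether equal numbers paired the wells was not settled by these values. A replicate block, also fitted to the 6 parental libraries alone, gave 608 higher and 464 lower. Under it 26 named genes lost their call, among them PCSK5, CLU, TAT, COL5A1, SREBF1 and INSIG1. The fit of those 6 libraries without a block weakened 13 named genes. Leaving out genes 2 times higher in SUM44F replicate 1 (chosen after seeing the data) gave 770 and 742. Of 151 named genes called, 119 kept their call under every tool, scaling, filter, sample and block alternative. GATA3, not called, was -0.06 and ran from -0.10 to 0.01 with 1 library left out, turning positive without SUM44F replicate 2 (0.013) and without SUM44PE replicate 1 (0.0041). With windows of 20 genes 5 stretches passed, and with 60 genes or at least 1 CPM the 2 on chromosomes 19 and 22. With a limit of 0.3 in place of 0.5, 10 passed. The ratio of the distance between cultures to that between replicates was 2.30, and 1.95 with a pseudocount of 0.1. Wells of 1 culture limit every p-value to these cultures.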

Other observations

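The genes of this part were chosen after their values were seen. Beside NTS, 9 genes called higher had at most 3 counts in every SUM44F library. HDC, which makes histamine, had 1.57, 1.79 and 1.5 CPM in SUM44PE, at least 30.8-fold higher, and AGTR2, an angiotensin receptor, 0.405, 0.317 and 0.225 CPM (at least 6.01-fold, not called without SUM44F replicate 1). Of the 7 genes at that floor in SUM44PE and called lower, KLK5, a kallikrein of skin, had 1.34, 1.13 and 0.869 CPM in SUM44F (at least 15.2-fold lower) and HES5, a Notch target, 0.307, 0.389 and 0.401 CPM (at least 5-fold lower). HES5 thus went the other way from HEY2 and HES1. TCN1, a cobalamin-binding protein, had 4.7, 4.12 and 4.73 CPM in SUM44PE and 0.373, 0 and 0.0111 in SUM44F, with a log2 fold change of 5.41, and was also called without SUM44F replicate 1.

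Receptors of neurotrophic factors split, with GFRA1, a co-receptor of RET known as estrogen-regulated, at 40.5, 46.2 and 44.7 CPM in SUM44PE and 7.42, 6.79 and 6.67 in SUM44F and NTRK2, the receptor of BDNF, at 10.8, 9.71 and 10.6 CPM in SUM44PE and 27.4, 30.2 and 33.4 in SUM44F. LRP2, an endocytic receptor that takes up carrier proteins, averaged 196 ± 5.37 CPM (SD, n = 3) in SUM44PE and 35.3 ± 2.04 in SUM44F. ALB, the gene of serum albumin, had 103, 117 and 112 CPM in SUM44PE and 36.7, 37.6 and 32.4 in SUM44F, and SERPINA3, an acute phase inhibitor, 39.9, 43.6 and 46.6 CPM in SUM44PE and 9.46, 5.94 and 8.81 in SUM44F. DIO1, which activates thyroid hormone, was lower where THRB was higher (5.29, 5.07 and 4.78 CPM in SUM44PE and 11.9, 11.5 and 11.2 in SUM44F). The transcription factor gene ETS1 (1.81, 1.98 and 2.35 CPM in SUM44PE and 12.7, 10.3 and 9.98 in SUM44F), NFKBIZ, a co-regulator of NF-kB (70.5, 72.7 and 74.6 CPM in SUM44PE and 230.4, 243 and 215 in SUM44F), and ODC1, the first enzyme of polyamine synthesis (21.9, 22.1 and 20.7 CPM in SUM44PE and 80.2, 70.1 and 77.5 in SUM44F), were lower. A2M (1.97, 2.05 and 1.95 CPM in SUM44PE and 21.4, 10.4 and 9.54 in SUM44F), LAMA2 (-2.70) and ACSL5 (-2.18) were called lower and were at least 2 times as high in SUM44F replicate 1 as in its replicates, and without it their log2 fold changes were -2.32, -2.07 and -1.69, still called.

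Of 579 genes named ZNF with a number, 51 were called lower and 3 higher, with a median of -0.20. Of all genes tested 2.72% were called lower and 2.85% higher. Most of the 51 lay on chromosome 19, 27 of them in its stretch. Outside the chromosome 19 stretch, 238 such genes elsewhere on chromosome 19 had a median of -0.24 (17 lower, none higher). These include genes beside the stretch, where the lowering continued, and are not a set apart from it. The 296 on other chromosomes had a median of -0.10 (7 lower, 3 higher), with a share called lower near that of all genes. The cause was not tested.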
